A study of Mus musculus with 6 samples.

Results

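Open chromatin inside the coding sequence of genes, away from any annotated start site, was described here in mouse embryonic stem cells (mESCs) with and without Spen. The peaks were chosen by position alone: an autosomal ATAC-seq peak was taken if it overlapped an annotated coding interval (CDS) of a protein-coding gene by at least 50 bp and its midpoint lay more than 5 kb from the transcription start site (TSS) of every annotated transcript. In the WT list 341 of 21698 autosomal peaks met these conditions, and in the Spen KO clone 3 list 370 of 22457. They are called exonic distal peaks below.

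ATAC-seq marks open chromatin through insertion of adapters by the Tn5 transposase. The cells were haploid mESCs of the HATX line, whose X chromosome carries an Xist transgene switched on by doxycycline, grown in serum and LIF on gelatin, and of mixed genomic background. The WT line kept Spen, which encodes an RNA-binding repressor protein, and Spen KO clone 3 is a single clone in which most of the gene was deleted. Sample records cover untreated cells and cells given doxycycline at 2 ug/ml for 48 hr, but the lists name only the line, so no doxycycline state is assigned. Each list combines 2 technical replicates, the read depth behind it is unknown, and Spen KO clone 2 was not analysed here. With 1 list per line there is no replicate check between lines: intervals below are 95% intervals for counting error only, by Wilson's method for shares, Newcombe's for differences of shares and the binomial method for medians.

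Coding exons carry regulatory sequence as well as codons. Some are bound by transcription factors or act as enhancers of their own gene or of a neighbour, and exons tend to be richer in G and C than the introns around them. A peak over an exon can also begin or end in the flanking intron, so the coding share of each peak is given below.

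Promoter peaks were a poor guide to cell identity in these lists. Of 12112 autosomal genes with coding sequence more than 5 kb from every TSS, 56.1% had a peak within 1 kb of their own TSS in WT. In clone 3 the share was 51.5%. Of 8 ES cell genes, 4 had such a peak in each list. In the WT list these were Pou5f1, Sox2, Esrrb and Zfp42, and in the Spen KO clone 3 list Pou5f1, Esrrb, Klf4 and Zfp42. Nanog, Tdgf1 and Dppa4 had none in either list. Of 10 genes of other cell types, 4 had such a peak in the WT list (Foxa2, Pax6, Neurog2 and Thy1) and 3 in the Spen KO clone 3 list (Foxa2, Pax6 and Neurog2). At Spen itself each list held 1 peak, at the promoter, with replicate values of 15.7 and 18.7 in WT and 20.5 and 13.1 in clone 3. The limits of the deletion were not used here, so the promoter peak does not check the knockout label.

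Coding sequence was over-represented in distal peaks relative to the distal genome. Of the bases in WT peaks beyond 5 kb of every TSS, 1.43% were coding, and in Spen KO clone 3 1.33%. Of all sequenced autosomal bases at that distance, 0.814% are coding, which makes ratios of 1.76 and 1.63. The authors kept only uniquely mapped reads, but these bases were not limited to those such reads can reach. How that bears on the ratios was not tested. Exonic distal peaks were nevertheless a small part of distal open chromatin. They made up 3.54% (3.19 to 3.93) of 9625 distal WT peaks and 3.30% (2.98 to 3.64) of 11220 distal Spen KO clone 3 peaks.

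The peaks were spread over many genes rather than gathered in a few. They fell in 330 genes in WT and 355 in Spen KO clone 3, out of 12112 autosomal genes with a coding interval of at least 50 bp at that distance from every TSS. Both lists had 210 genes in common, which is 63.6% of the WT genes and 59.2% of the clone 3 genes. No gene held 3 or more exonic distal peaks in a list. Pairs were found in 11 genes in WT and 15 in clone 3. In both lists Mapt, which encodes the microtubule-binding protein tau, had peaks at coding exons 3 and 9 of 13, and Enah, an actin regulator, had peaks at exons 6 and 7 of 15. These pairs were picked out after their values were seen.

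Exonic distal peaks of the WT list were found in 1 list only somewhat more often than its other distal peaks. In Spen KO clone 3 the difference changed sign with the choice of peaks. A peak was called shared if at least 1 of its bases lay in any peak of the other line. In WT, 119 of 341 were WT-only, a share of 34.9% (30.0 to 40.1), beside 26.0% of all autosomal WT peaks and 28.0% of the 9284 other distal peaks, those with under 50 bp of CDS. The difference from other distal peaks was 6.89 percentage points (1.94 to 12.2). In Spen KO clone 3, 149 of 370 were clone 3-only, 40.3% (35.4 to 45.3), beside 28.4% of all autosomal peaks and 38.4% of 10850 other distal peaks. There the difference was 1.88 points and its interval, from -3.08 to 7.04, included 0. With both lists cut to peaks with an Irreproducible Discovery Rate (IDR, which compares the replicates) of 0.01 or lower, it was -8.40 points (-14.4 to -1.46). That cut also changes which peaks count as shared. Against the uncut WT list, 30 of 182 exonic and 1352 of 6228 other distal clone 3 peaks of that IDR were clone 3-only. The peaks within 5 kb of a TSS were found in 1 list only less often, 24.2% in WT and 18.4% in clone 3.

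The WT excess was smaller among peaks of like composition and rank. Each peak was ranked within its list by its score, the mean of its 2 replicate values, and the rank is stated as a percentile of the autosomal list. With other distal peaks weighted to the same GC content the WT difference was 4.34 points, and with weights by score decile it was 3.91 points. Both intervals then included 0 (-0.525 to 9.54 and -0.951 to 9.12). These are not Newcombe intervals but the Wilson limits of the exonic share minus the weighted share, which was taken as free of error. In Spen KO clone 3 the corresponding differences were 0.634 and -4.30 points.

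Nearly all shared exonic distal peaks had a counterpart that also met the conditions. Of the 222 shared peaks of the WT list, 209 overlapped an exonic distal peak of the clone 3 list, and 13 overlapped a peak that did not reach the CDS overlap or the TSS distance. Of the 221 shared peaks of the clone 3 list the corresponding numbers were 209 and 12. Peaks found in 1 list only were mostly far from any peak of the other list. The median distance was 22.5 kb (18.9 to 27.8) for WT-only and 19.2 kb (15.6 to 26.7) for clone 3-only peaks. Within 1 kb lay 5 (4.20%) of the WT-only and 2 (1.34%) of the clone 3-only peaks. Of other distal peaks in 1 list only, 4.23% in WT and 3.29% in clone 3 lay that near. The median distances of those other peaks were 22.9 kb and 39.9 kb. By the median, though not by the share within 1 kb, clone 3-only peaks in exons were closer to WT peaks than those elsewhere.

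Score rank separated shared from unshared peaks far more than sequence composition did. The median percentile of all exonic distal peaks was 41.0 (34.1 to 44.8) in WT and 37.7 (32.9 to 44.2) in Spen KO clone 3. Shared peaks had medians of 53.2 (48.8 to 58.7) and 53.6 (48.5 to 61.3). WT-only peaks had a median of 20.3 (12.8 to 23.8) and clone 3-only peaks one of 15.3 (12.7 to 18). Other distal peaks found in 1 list only had medians of 20.2 (19 to 21.6) in WT and 28.8 (27.8 to 29.7) in clone 3. The clone 3-only peaks in exons therefore ranked below other distal clone 3-only peaks, while the WT-only peaks ranked alike. Clone 3-only peaks within 5 kb of a TSS ranked as low, at a median of 14.3 (13.5 to 15.1), so the low rank is not particular to exons.

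The top of each list held few exonic peaks, and those were shared. At or above the 90th percentile there were 12 exonic distal peaks in WT (3.52%, 2.02 to 6.05) and 11 in clone 3 (2.97%, 1.67 to 5.24), and 0 of either set was found in 1 list only. Other distal peaks reached that rank in 6.54% and 7.89% of cases, and at that rank they too were nearly all shared, with 4 of 607 WT-only and 8 of 856 clone 3-only. In the lowest 20% of scores 58 of 90 exonic WT peaks were WT-only (64.4%, 54.2 to 73.6), beside 61.4% of other distal peaks. In the lowest 20% of clone 3, 89 of 120 were clone 3-only (74.2%, 65.7 to 81.2), beside 70.6%. The share fell with rising score in both sets, and within a range of scores the exonic value was above or below that of other distal peaks, mostly with an interval that included it. From 20 to 40% of the scores, 44.2% (33.6 to 55.3) of exonic and 35% of other distal peaks were WT-only, and 42.5% (31.8 to 53.9) and 52.2% were clone 3-only. From 40 to 60% the values were 29.9% (20.8 to 40.8) and 20.6% in WT, and 29.4% (19.9 to 41.1) and 39.5% in clone 3. From 60 to 80% they were 5% (1.71 to 13.7) and 7.13% in WT, and 9.38% (4.37 to 19) and 19.1% in clone 3. In the top 20% they were 2.70% (0.479 to 13.8) and 0.757% in WT, and 6.67% (2.29 to 17.9) and 3.27% in clone 3.

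Peaks found in 1 list only were also shorter and less often of low IDR, as they were among other distal peaks. The median length was 417 bp (398 to 441) for WT-only and 527 bp (506 to 560) for shared WT peaks, and 423 bp (404 to 448) and 510 bp (490 to 541) in clone 3. The IDR was 0.01 or lower in 28.6% (21.2 to 37.3) of WT-only and 74.8% (68.7 to 80.0) of shared WT peaks. In clone 3 it was that low in 20.1% (14.5 to 27.3) of clone 3-only and 68.8% (62.4 to 74.5) of shared peaks. Among other distal peaks the IDR was that low in 29.3% of WT-only and 72.7% of shared WT peaks, and in 32.5% and 72.9% in clone 3. Their median lengths were 412 and 517 bp in WT and 436 and 509 bp in clone 3. The larger replicate value was a median of 1.19 times the smaller in WT and 1.18 times in clone 3.

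Shared exonic peaks moved in rank in both directions, with a median shift near 0. The rank shift of a shared peak was taken as its percentile in Spen KO clone 3 minus that of the WT peak it overlapped. Over 221 shared peaks its median was 1.26 points (-0.536 to 4.68), with quartiles of -10.8 and 12.5, while for 6685 other shared distal peaks it was 4.01 (3.63 to 4.43) and for 9168 shared peaks within 5 kb of a TSS -2.25 (-2.60 to -1.97). Of the 221, 38 (17.2%) were 20 points or more higher in clone 3, beside 12% of all shared autosomal peaks and 19.9% of other shared distal peaks. Another 25 (11.3%) were 20 points or more lower, beside 11.3% of all shared autosomal peaks and 8.06% of other shared distal peaks. The interval of the exonic median included that of other distal peaks, so the 2 cannot be told apart by it. Of the 221, 55.2% (48.6 to 61.6) ranked higher in clone 3 than in WT. Among other shared distal peaks 62.3% did, just above that interval.

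The 3 largest gains in rank in Spen KO clone 3 were at 4931428F04Rik, Utrn and Dennd5b. At 4931428F04Rik the replicate values were 12.8 and 12.6 in WT and 18.5 and 21.0 in clone 3, a shift of 45.2 points. At coding exon 16 of 74 of Utrn, which encodes the dystrophin relative utrophin, the values were 11.7 and 11.2 in WT and 17.1 and 19.5 in clone 3, a shift of 42.0 points. At the last coding exon of Dennd5b, a gene of the DENN family that acts on Rab proteins, they were 10.1 and 9.00 in WT and 20.4 and 13.8 in clone 3, a shift of 40.7 points that was 25.1 with replicate 2 alone.

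The 3 largest losses were at Pdss2, Ptprs and Sult4a1. Pdss2, an enzyme subunit of coenzyme Q synthesis, had values of 21.0 and 30.8 in WT and 10.3 and 11.4 in clone 3, a shift of -60.2 points that was -44.2 with replicate 1 alone. Ptprs, a receptor tyrosine phosphatase, had 19.4 and 28.8 in WT and 13.7 in both replicates of clone 3, a shift of -42.4 points that was -21.8 with replicate 1 alone. Sult4a1, a sulfotransferase of the brain, had 18.8 and 18.1 in WT and 7.54 and 9.32 in clone 3, a shift of -41.5 points. The scale of the values is not named and they were not normalised between lines here, so only the ranks are compared.

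The highest-ranked shared peaks, by the mean of the percentiles in both lists, lay in genes of unrelated function. Cacng8 encodes an auxiliary subunit of AMPA-type glutamate receptors. Its peak at chr7:3411416-3412025 had values of 49.0 and 52.7 in clone 3 and 53.5 and 65.4 in WT, at percentiles 97.9 and 98.5, and covered the whole of coding exon 2 of 5. Zscan22, a SCAN-domain zinc finger gene, had a peak at chr7:13488773-13489420 with values of 51.2 and 45.9 in clone 3 and 70.8 and 50.4 in WT, at percentiles 97.5 and 98.6. Gpr98 encodes a very large adhesion receptor needed for hearing. Its peak covered coding exon 72 of 90, 20.3 kb from the nearest TSS, with values of 42.1 and 50.8 in clone 3 and 44.8 and 44.4 in WT. Def8 had 33.7 and 36.6 in clone 3 and 44.4 and 52.5 in WT, at coding exon 6 of 13. Prdm9, the other member of the first 5, is described below with its repeats. In the WT list alone a shared peak at Arhgap31 (60.7 and 46.5, percentile 97.6) ranked above 3 of these, but its percentile in clone 3 was 86.8.

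The highest-ranked WT-only peak lay in Smarcc1, which encodes a core subunit of the SWI/SNF (BAF) chromatin remodelling complex. The peak, at chr9:110108519-110108933, overlapped coding exon 24 of 28 by 139 bp and lay 69.4 kb from the nearest peak of the clone 3 list. Its values were 21.5 and 46.6, and its percentile of 86.8 rests on replicate 2, since with replicate 1 alone it was 57.1. Anxa6, a calcium-dependent phospholipid-binding annexin, followed with 27.5 and 27.1 at percentile 75.7, at coding exon 13 of 25. Itgam, the alpha-M integrin of myeloid cells, had 30.1 and 22.0 at percentile 72.9. Vash1, a vasohibin that removes the terminal tyrosine of tubulin, had 28.9 and 17.2 at percentile 64.4, which was 41.3 with replicate 2 alone. Prss48, a serine protease gene, had 20.8 and 22.3 at percentile 59.3. Below these 5 the WT-only peaks went down to percentile 1.10.

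The highest-ranked clone 3-only peak lay in Pou1f1, which encodes a POU-domain transcription factor of the anterior pituitary. The peak at chr16:65529787-65530267 overlapped coding exon 3 of 6 by 203 bp, with values of 34.9 and 25.3 and percentile 86.1, and the nearest WT peak was 32.4 kb away. Myo5b, a myosin of recycling endosomes, had 27.2 and 29.5 at percentile 83.6 over the whole of coding exon 28 of 40. Stard3nl, a protein of late endosomes, had 25.1 and 29.4 at percentile 81.7. Fbxo8, an F-box gene, had 22.7 and 20.4 at percentile 66.9, and Ifnar1, a subunit of the type I interferon receptor, had 18.5 and 23.5 at percentile 64.8. These 5 were picked as the top of 149 clone 3-only peaks. The median percentile of that class was 15.3, and 21 of the 149 were at or above percentile 50.

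The sequences below show how the top peaks of each class sit on their exons. They are mm9 sequence on the gene's strand, 5′ to 3′, each from the coding part of a peak with up to 40 bases of the same peak beside it, and capitals mark coding bases. Cacng8 (chr7:3411499-3411662, plus strand) and Zscan22 (chr7:13489106-13489345, plus strand) are the top shared peaks. Smarcc1 (chr9:110108519-110108697, plus strand) and Anxa6 (chr11:54811997-54812155, minus strand) are the top WT-only peaks. Pou1f1 (chr16:65530028-65530267, plus strand) and Stard3nl (chr13:19464417-19464574, minus strand) are clone 3-only.
Cacng8: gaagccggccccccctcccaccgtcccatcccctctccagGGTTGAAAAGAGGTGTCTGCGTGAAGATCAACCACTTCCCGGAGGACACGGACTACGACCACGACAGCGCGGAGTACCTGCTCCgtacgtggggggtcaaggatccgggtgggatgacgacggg
Zscan22: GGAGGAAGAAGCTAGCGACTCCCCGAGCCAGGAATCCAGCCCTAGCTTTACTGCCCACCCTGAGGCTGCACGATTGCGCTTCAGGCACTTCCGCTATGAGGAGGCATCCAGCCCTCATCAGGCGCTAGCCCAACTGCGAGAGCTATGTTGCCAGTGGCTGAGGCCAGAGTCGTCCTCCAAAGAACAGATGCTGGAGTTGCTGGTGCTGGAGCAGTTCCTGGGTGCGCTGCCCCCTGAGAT
Smarcc1: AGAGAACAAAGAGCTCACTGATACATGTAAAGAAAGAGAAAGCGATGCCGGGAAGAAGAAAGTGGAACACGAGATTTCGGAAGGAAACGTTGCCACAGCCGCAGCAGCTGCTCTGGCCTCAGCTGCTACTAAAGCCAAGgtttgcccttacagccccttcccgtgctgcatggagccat
Anxa6: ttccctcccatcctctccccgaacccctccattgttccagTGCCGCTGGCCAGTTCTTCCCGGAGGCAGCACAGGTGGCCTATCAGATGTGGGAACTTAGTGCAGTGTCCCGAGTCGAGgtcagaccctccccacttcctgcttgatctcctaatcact
Pou1f1: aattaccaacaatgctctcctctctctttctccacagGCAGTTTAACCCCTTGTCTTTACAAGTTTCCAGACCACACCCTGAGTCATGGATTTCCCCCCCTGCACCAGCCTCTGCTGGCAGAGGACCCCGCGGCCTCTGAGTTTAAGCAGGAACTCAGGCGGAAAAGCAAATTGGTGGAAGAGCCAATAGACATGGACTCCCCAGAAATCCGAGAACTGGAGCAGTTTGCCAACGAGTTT
Stard3nl: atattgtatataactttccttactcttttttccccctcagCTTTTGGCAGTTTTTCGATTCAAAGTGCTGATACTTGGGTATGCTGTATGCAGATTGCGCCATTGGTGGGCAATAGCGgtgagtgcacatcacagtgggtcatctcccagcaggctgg
The Zscan22 stretch is coding throughout, while 84 of the 164 bases at Cacng8 and 78 of the 158 at Stard3nl are coding.

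Most exonic distal peaks were wider than the exon they covered. The median overlap with 1 coding interval was 150 bp (139 to 160) in WT and 142 bp (133 to 154) in clone 3, and coding bases made up a median of 31.6% (28.9 to 36.2) and 34.5% (30.8 to 37.6) of the peak. The whole coding interval lay inside the peak in 188 of 341 WT peaks (55.1%, 49.8 to 60.3) and 193 of 370 clone 3 peaks (52.2%, 47.1 to 57.2). The midpoint lay in coding sequence in 45.5% (40.2 to 50.8) and 47.6% (42.5 to 52.7).

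Last coding exons held more of these peaks than their share of coding sequence, though peaks and coding sequence were placed by different transcripts. They accounted for 85 WT peaks (24.9%, 20.6 to 29.8) and 86 clone 3 peaks (23.2%, 19.2 to 27.8). Of the coding intervals that could have held such a peak, taken from the transcript with the longest CDS of each gene, 9.46% were last coding exons, and these held 17.2% of the coding bases. Each peak was instead placed by the transcript with the most coding exons among those that hold its interval. An exon of a shorter transcript can thus count as first or last for a peak. How this bears on the comparisons of exon position was not tested. Internal exons accounted for 70.7% (65.6 to 75.3) and 71.4% (66.5 to 75.7), beside 78.2% of the bases. First coding exons held 10 peaks in WT (2.93%, 1.60 to 5.31) and 11 in clone 3 (2.97%, 1.67 to 5.24), beside 1.47% of the intervals and 2.48% of the bases. Of these few peaks 8 and 9 were found in 1 list only, beside 34.9% and 40.3% of all exonic peaks. Untranslated bases were present in 109 WT peaks (32.0%, 27.2 to 37.1) and 99 clone 3 peaks (26.8%, 22.5 to 31.5).

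A minority of peaks lay wholly in coding sequence. There were 27 in WT (7.92%, 5.50 to 11.3) and 34 in clone 3 (9.19%, 6.65 to 12.6). Among shared peaks, measured in the clone 3 list, the largest overlaps with 1 coding interval were at Shank3, Msl3l2 and Prdm9. The peak in Shank3, a scaffold of the postsynaptic density, had 934 coding bp in clone 3, with values of 33.4 and 32.7 there and 20.8 and 18.4 in WT, a rank shift of 38.8 points. Msl3l2, a gene with 1 coding exon, had 860 bp of overlap and values of 25.2 and 33.6 in clone 3 and 28.5 and 28.9 in WT. Measured in the WT list, the largest overlaps of shared peaks were 956 bp at Zfp169, 945 bp at Zfp697 and 910 bp at Prdm9, which were looked up afterwards.

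Among the peaks found in 1 list only, the longest coding stretches were in long exons, and the peaks ranked below the middle of their list. In WT they were at Gprc6a, an amino acid-sensing receptor (696 bp, 19.5 and 15.3), Sall3, a zinc finger factor (667 bp, 10.1 and 8.37), and Cmya5, a muscle protein (557 bp, 18.7 and 16.6). In clone 3 they included Pclo, the presynaptic protein piccolo (1151 bp, 9.23 and 7.39), and Trank1 (761 bp, 10.6 and 11.3). Their percentiles ran from 3.40 at Pclo to 41.0 at Cmya5. Coding intervals of 1000 bp or more were hit by 8.50% (5.99 to 11.9) of WT peaks and 8.38% (5.97 to 11.6) of clone 3 peaks, and hold 13.7% of the eligible coding bases.

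The Prdm9 peak consisted almost wholly of a repeat array, a feature picked out after it was seen. It encodes the histone methyltransferase that sets sites of meiotic recombination through a tandem array of zinc fingers. The peak lay wholly in coding exon 10 of 10, at chr17:15680974-15681823 in clone 3, with values of 42.7 and 38.4, and over 910 bp in WT, with 53.7 and 43.1. At an offset of 84 bases, 28 codons or 1 zinc finger unit, 97.7% of its bases in either list were the same as the base 84 positions on. The clone 3 peak held 10 whole units of which 8 were distinct, and at most 6 bases differed between any pair. Only 7 of the 84 positions varied.

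The units below are mm9 sequence from this peak, 5′ to 3′ on the minus strand, shown because the array decides what the peak consists of. They are the first 3 distinct units (unit 1 chr17:15681740-15681823, unit 2 chr17:15681656-15681739 and unit 4 chr17:15681488-15681571), and capitals mark bases that differ from unit 1.
Prdm9 unit 1: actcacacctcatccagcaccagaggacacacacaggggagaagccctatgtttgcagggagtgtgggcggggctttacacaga
Prdm9 unit 2: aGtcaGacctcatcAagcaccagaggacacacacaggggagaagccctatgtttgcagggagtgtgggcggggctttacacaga
Prdm9 unit 4: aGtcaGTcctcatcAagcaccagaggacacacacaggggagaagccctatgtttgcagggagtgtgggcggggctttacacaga
Among other listed zinc finger genes the identity at the same offset was highest at Zfp239 (70.0%), Zfp777 in clone 3 (68.4%) and Zfp787 (60.1%). It was as low as 22.8% at Zfp462 and 24.9% at Zscan22 in clone 3, so not all of these peaks repeated at that offset. Only uniquely mapped reads were kept by the authors, and how that bears on peaks in such arrays was not tested.

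GC content was high in exonic distal peaks and alike in shared and unshared ones. The median was 56.8% (55.8 to 57.3) in WT and 56.2% (55.7 to 57.1) in clone 3, beside 51.5% (51.3 to 51.6) and 51.3% (51.1 to 51.5) in other distal peaks. In WT it was 56.8% for shared (55.7 to 57.4) and for WT-only peaks (55.4 to 57.7). In clone 3 it was 56.6% (55.8 to 57.2) for shared and 55.7% (54.8 to 57.1) for clone 3-only peaks. The range ran from 43.1 to 76.7% in WT and from 40 to 76.1% in clone 3. CpG dinucleotides were at 0.373 (0.339 to 0.394) and 0.380 (0.355 to 0.411) of the number expected from C and G content, and at 0.227 and 0.228 in other distal peaks. The median over eligible coding intervals was 0.374, close to the value of the exonic peaks.

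The coding part of the peaks was richer in G and C than coding sequence in general. Its median GC content was 58.1% (57.4 to 58.8) in WT and 57.6% (56.7 to 58.3) in clone 3, while 50.7% was the median over all eligible coding bases, each given the GC content of its interval. In peaks with at least 100 coding and 100 non-coding bases, the non-coding part was GC-rich as well. Its median was 55.7% (54.5 to 56.4) over 216 WT peaks and 54.6% (53.9 to 56.0) over 235 clone 3 peaks. The coding part was the richer one in 160 (74.1%) and 170 (72.3%) of these, by a median of 3.59 points (2.60 to 4.52) and 3.46 points (2.18 to 4.03).

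Motifs were searched on both strands in 300 bp around each midpoint, and a match describes letters, not binding. The core motif of the architectural protein CTCF was found in 14 WT peaks (4.11%, 2.46 to 6.77) and 20 clone 3 peaks (5.41%, 3.53 to 8.20). Other distal peaks held it in 3.08% and 2.77%, all autosomal peaks in 2.32% and 2.26%, and windows around eligible coding intervals in 0.225%. The difference from other distal peaks was 1.03 points (-0.661 to 3.71) in WT and 2.63 points (0.724 to 5.44) in clone 3. Its direction depended on the overlap: with at least 200 bp of CDS the shares were 0.990% (0.175 to 5.40) and 1.85% (0.509 to 6.50), below those of other distal peaks. In clone 3 it was found in 9.40% (5.68 to 15.2) of clone 3-only and 2.71% (1.25 to 5.80) of shared exonic peaks. In WT it was found in 6.72% (3.45 to 12.7) of WT-only and 2.70% (1.24 to 5.77) of shared ones. The separate intervals of unshared and shared peaks overlapped in both lines, in clone 3 only over the narrow stretch from 5.68 to 5.80%. Such overlap does not show that the shares are alike, and no interval of their difference was calculated. In other distal peaks the share was 4.65% in WT-only, 3.22% in clone 3-only, and 2.47% and 2.50% in shared peaks.

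Motifs of ES cell factors were sparse. The Oct4 octamer ATGCAAAT was found in 2.05% (0.998 to 4.18) of exonic WT peaks and 1.89% (0.919 to 3.85) of clone 3 peaks, beside 4.92% and 4.69% of other distal peaks and 1.22% of eligible exon windows. The Esrrb site TCAAGGTCA was found in 1.17% and 1.35%, beside 0.819% and 1.03%. The YY1 site AAGATGGCG was as rare in exonic peaks as in exons at large. It occurred in 1 WT peak (0.293%), 0 of 370 clone 3 peaks and 0.221% of eligible exon windows, and in 6.38% and 11.9% of other distal peaks. The 11.9% was made up of 19.1% of clone 3-only and 7.43% of shared peaks.

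The E-box and the GC box were more frequent. The E-box CACGTG was found in 9.09% of exonic WT peaks and 8.11% of clone 3 peaks, beside 4.86% and 3.96% of other distal peaks, with differences of 4.23 points (1.58 to 7.78) and 4.14 points (1.74 to 7.39). The GC box GGGCGG was found in 32.0% (27.2 to 37.1) and 30.3% (25.8 to 35.1), beside 22.9% and 24.7% of other distal peaks and 45.4% and 43.2% of all autosomal peaks. The AP-1 site TGANTCA was found in 9.09% and 7.84%, beside 12.5% and 10.8%, with intervals of the difference that included 0. The sites TGCGCATGC (Nrf1), TGACGTCA (CRE) and CCGGAAGT (Ets) were each found in under 2% of exonic peaks, and their differences had intervals that included 0.

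In 5 peaks of the clone 3 list the CTCF core lay inside coding sequence within that window, and in 0 of the WT list. The highest-ranked was in coding exon 4 of 5 of Tacr2, a neurokinin receptor, whose shared peak had values of 26.0 and 30.1 in clone 3 and 32.4 and 28.8 in WT. The WT peak at Tacr2 also spans this site, outside the 300 bp around its own midpoint. Clone 3-only peaks with a coding CTCF core were at 5430411K18Rik (10.7 and 16.2), Astn1 (13.5 and 11.1), Kcnj10 (10.5 and 11.2) and Robo4 (9.12 and 10.1). Astn1 acts in neuronal migration, Kcnj10 is a potassium channel of glia, and Robo4 is an endothelial receptor. All 4 ranked below percentile 25.

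The coding sequence around the motif is shown for Tacr2 (chr10:61724232-61724319, plus strand) and Astn1 (chr1:160527355-160527446, plus strand), in mm9, 5′ to 3′. Here all bases are coding and capitals mark the CTCF core, which lies on the minus strand of the gene in Tacr2 and on the plus strand in Astn1.
Tacr2: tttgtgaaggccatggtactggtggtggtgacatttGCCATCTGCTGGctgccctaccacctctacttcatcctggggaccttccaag
Astn1: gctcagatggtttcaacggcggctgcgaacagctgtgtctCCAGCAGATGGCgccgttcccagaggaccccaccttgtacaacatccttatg

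Genes were also counted by short lists of symbol beginnings, which cover only part of each gene class, so the counts below hold for the lists and not for the classes. Of 285 C2H2 zinc finger genes listed in this way (Zfp, Zscan, Zbtb, Klf, Prdm and the like) with eligible coding intervals, 14 (4.91%) held a peak in WT and 17 (5.96%) in clone 3, beside 2.72% and 2.93% of all eligible genes. In each list 11 of these peaks were shared, Zscan22, Prdm9, Klf12, Zbtb24 and Prdm13 among them. The 69 listed genes of the Hox, Pou, Sox, Fox, T-box, Pax and related families held 0 shared peaks. The list had 1 peak in WT (1.45% of its genes), at Zfhx2 (percentile 7.89), and 5 in clone 3 (7.25%), at Pou1f1 (86.1), Sox5 (49.9), Irx4 (38.0), Pax1 (8.01) and Foxp4 (1.42). Of all exonic distal peaks 34.9% were WT-only and 40.3% clone 3-only. Homeobox genes outside the list were not counted, among them Otp and Prox2, which had WT-only peaks at percentiles 19.4 and 20.3.

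The 89 listed genes of the extracellular matrix and its receptors also had no shared peak, while 222 of all 341 exonic WT peaks and 221 of 370 in clone 3 were shared. The list held 4 WT-only peaks (4.49% of its genes, beside 2.72% of all eligible genes), at Itgam, Col27a1, Fbn1 and Tenc1. It held 6 clone 3-only peaks (6.74%, beside 2.93%), at Col5a2, Col8a2, Hspg2, Itgae, Itgb4 and Itgb7. Tenc1, a tensin-like protein inside the cell, entered through its symbol alone. The highest percentiles were 72.9 at Itgam and 61.4 at Col5a2, a fibrillar collagen, and the other 8 were at or below 15.6. Matrix-related genes outside the list were not counted. Among them Timp3, Mmp24 and Mmp25 had shared peaks, at WT percentiles 57.8, 50.4 and 69.6. Adamts14, Mmp17 and Mmp28 had WT-only peaks at percentiles 12.3, 9.47 and 20.5. The numbers of peaks are small, and no test was made over any group.

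The listed ion channels and transporters were close to all eligible genes in how often they held a peak. Of 512 such genes 3.52% held one in WT and 3.12% in clone 3. There were 19 peaks in WT, of which 13 were shared, beside 222 of all 341. In clone 3 there were 16, of which 13 were shared, beside 221 of 370. Trpv3, a heat-sensitive channel of skin, had values of 39.6 and 19.4 in WT and 29.8 and 29.5 in clone 3. A list of 90 kinase, phosphatase and exchange factor genes (Map kinases, Arhgef, Dock, Mast, Ptpr, Rapgef and Tiam) held 6 WT and 10 clone 3 peaks, 5 of them shared in each list, with a pair in Map4k1 at coding exons 14 and 27. These lay in 5.56% and 10% of the listed genes, beside 2.72% and 2.93% of all eligible genes. A list of 166 motor and cytoskeleton genes, which leaves out Mapt, Enah, Clasp1 and Utrn, held 4 and 6 (2.41% and 3.61% of the genes), with 3 shared in each list, Myo5c and Dnahc1 among them. Their unshared peaks include Ankrd33b and Myof, which entered through their symbols alone. Among 43 listed cadherin genes Celsr3 alone had a peak, with 33.7 and 21.8 in WT and 16.7 and 14.2 in clone 3.

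The listed chromatin regulators, which do not include Prdm9, held peaks about as often as all eligible genes. They had peaks in 4 of 97 genes in WT (4.12%, beside 2.72%) and 3 in clone 3 (3.09%, beside 2.93%). Besides Smarcc1, WT had a peak at Chd5, a chromodomain remodeller (10.7 and 12.5, WT-only). Smarcc2, the paralogue of Smarcc1 in the same complex, had a shared peak at coding exon 14 of 29, with 21.4 and 19 in WT and 13.6 and 20.9 in clone 3. Mll3, a histone H3 lysine methyltransferase, had a shared peak with 20.5 and 14.9 in WT and 14.6 and 13.0 in clone 3. Mll5 had a clone 3-only peak that was wholly coding (8.28 and 12.2).

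The short lists for Notch and Wnt signalling and for pluripotency held 3 peaks. None was shared, beside WT-only and clone 3-only shares of 34.9% and 40.3% among all exonic peaks, and 3 peaks are too few to set against these. The 47 listed Notch and Wnt genes had 0 in WT and 2 in clone 3 (4.26%, beside 2.93%), at Dvl3, a Dishevelled protein (10.1 and 11.5), and Rbpjl, a relative of the Notch effector Rbpj (6.98 and 6.18). Prickle1, a gene of planar polarity signalling outside the list, had a WT-only peak at percentile 4.27. Of 15 eligible pluripotency genes, 1 had a peak in WT and 0 in clone 3. It was the TGF-beta family ligand Nodal, where coding exon 2 of 3 carried a WT-only peak at chr10:60886103-60886472 with values of 16.0 and 13.6 at percentile 23.8. The other genes of that list had no exonic distal peak in either line.

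Host genes as a whole had open promoters about as often as all eligible genes. A peak lay within 1 kb of a TSS of the same gene for 187 of 330 host genes in WT (56.7%, 51.3 to 61.9), beside 56.1% of all eligible genes. In clone 3 it did for 193 of 355 (54.4%, 49.2 to 59.5), beside 51.5%. For host genes of WT-only peaks the share was 58.6% (49.5 to 67.2), beside 56.2% (49.6 to 62.7) for those of shared peaks. In clone 3 it was 59.6% (51.5 to 67.2) for clone 3-only and 51.6% (45.0 to 58.2) for shared peaks. The exonic peaks lay nearer to start sites than other distal peaks, at a median of 11.6 kb in both lists (10.3 to 13.0 and 10.8 to 13.8), beside 24.5 kb and 29.0 kb.

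In 4 genes each line had its own peak and neither was shared. In Sh2d3c the WT peak covered coding exon 9 and the clone 3 peak coding exon 8 of 12. In Trim14 both lay in the last coding exon, without overlap, and in Kndc1 they lay at exons 30 and 23 of 31. The last of these genes was 4933437F05Rik, with peaks at exons 2 and 3 of 6. All 8 peaks ranked at or below percentile 39.1, and these genes were picked out after their peaks were seen.

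All 19 autosomes held exonic distal peaks in each list, and 1 stretch of chromosome 1, chosen after peak positions were seen, differed between lists. From 100 to 130 Mb the clone 3 list held 356 peaks and the WT list 143, which is 19.2% and 9.27% of the peaks on that chromosome. All distal peaks there numbered 292 in clone 3 and 97 in WT, and how many of them were in 1 list only is not given here. Exonic distal peaks there numbered 6 in clone 3, all of them clone 3-only, and 0 in WT. The difference is thus not particular to exonic peaks. Clasp1, a microtubule plus-end protein, had 16.3 and 10.1 at coding exon 21 and 19.3 and 15.9 at exon 24 of 40, and Epb4.1l5 had 15.8 and 23.7 at exon 24 and 13.1 and 10.8 at exon 1 of 24. Gli2, a transcription factor of Hedgehog signalling, had 8.60 and 11.2 over 608 coding bp, and Tnfrsf11a, the receptor RANK, had 14.1 and 18.3. Without this stretch the clone 3 difference from other distal peaks was 1.73 points.

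The conditions set sharp limits that some peaks only just met. In WT the smallest accepted overlap was 52 bp, at Arrb1, and the largest refused one 48 bp, at Farp2. In clone 3 these were 50 bp at Tmem146 and 49 bp at Arhgap26. The accepted peaks nearest to a TSS were at Pomc in WT, 5019 bp away, and Mmp24 in clone 3, 5026 bp away. The nearest refused ones were at Grin2c in WT, 4982 bp away, and Zfp385a in clone 3, 4953 bp away.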

How the data were processed

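ATAC-seq peaks of HATX WT and Spen KO clone 3 were taken from the lists the authors deposited, called on 2 technical replicates per line. Per the study's methods the reads were trimmed with cutadapt and mapped to mm9 with Bowtie2, uniquely mapped reads were kept, and peaks were called with MACS2 on each replicate and filtered by IDR. The deposited replicate values are a score whose scale is not named, so the mean of both served as a rank within a list. Read counts were not used, and the depth is unknown. Peak length and coordinates are as deposited.

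CDS intervals, transcripts and untranslated regions came from the GENCODE annotation of mm9, and sequence from the matching genome. The named peaks were the 5 top-ranked of each class, the 3 largest coding overlaps, the 3 highest and lowest rank shifts, genes with 3 or more peaks, the gene lists, threshold cases and coding CTCF matches. Some genes that meet these rules are not reported here. Both the members and the lists were chosen with earlier results of these data known. Overlaps, distances and intervals were tested on simulated data. Calculations were made with pysam 0.24.0, scipy 1.17.1, pandas 2.3.3, numpy 2.4.6 and Python 3.11.15.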

Additional observations from a re-analysis of the deposited data

Results flagged for a closer look

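Peaks on the X chromosome were outside the comparisons above, and some of them met the same conditions. There were 13 in the WT list (1.30% of 1000 X-linked peaks, 0.761 to 2.21) and 9 in the Spen KO clone 3 list (0.751% of 1199, 0.395 to 1.42). Of all autosomal peaks 1.57% in WT and 1.65% in clone 3 met these conditions. The clone 3 interval on the X chromosome lay below its autosomal value. The coding share of distal X-linked sequence was not calculated. The X chromosome of these cells carries the inducible Xist transgene. The paper reports that inducing it lowered accessibility at most X-linked sites in WT, and reproducibly at none in Spen KO clones. The doxycycline state of the lists is unknown, so X-linked counts cannot be read like autosomal ones. How Xist bears on them was not tested. All 9 clone 3 peaks were shared with WT, at Syp, Ndp, Slc9a7, Sytl4, Iqsec2, Cnksr2, Zrsr2, Egfl6 and Msl3. In WT 9 were shared and 4 were WT-only. Among autosomal exonic distal peaks 221 of 370 in clone 3 and 222 of 341 in WT were shared. The WT-only peaks included those at Ccdc120 (13.0 and 13.3), Elk1 (14.3 and 12.6) and Frmpd4 (12.6 and 15.0). The highest values in WT were at Syp, which encodes the synaptic vesicle protein synaptophysin, with 45.9 and 53.5 in WT and 38.1 and 31.8 in clone 3. In clone 3 the highest mean was at Slc9a7, with 37.9 and 41.1.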

How the results depend on the processing

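Over 21 alternative settings, 167 of 198 recomputed values lay within the 95% interval of the reported value or, for counts, within 1.5 times it. Some of these values could not change under their setting, such as GC content under a stricter definition of shared peaks. The tally is therefore not a measure of stability. The WT difference from other distal peaks was positive under every setting run, though its interval included 0 with an overlap of 200 bp, with peaks at or above the median score, with IDR at or below 0.01 and with each weighting. The Spen KO clone 3 difference was not stable in sign: it was -5.59 points with both lists cut to peaks at or above the median score, -8.40 with both cut to IDR at or below 0.01, where the interval (-14.4 to -1.46) excluded 0, and -4.30 weighted by score decile. These cuts remove peaks of the other list too, so a peak can become unshared through the cut.

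Peak numbers in WT and clone 3 fell to 101 and 108 with an overlap of at least 200 bp, 196 and 219 beyond 10 kb, 155 and 176 with the midpoint in coding sequence, 132 and 141 at or above the median score, and 200 and 182 with IDR at or below 0.01. With both lists cut, the share found in 1 list only was 25.8% and 32.6% at or above the median score, and 26.4% in clone 3 with IDR at or below 0.01. Against the uncut other list, 10 of 132 WT and 21 of 141 clone 3 exonic peaks at or above the median score were unshared. So were 272 of 3931 other distal WT peaks and 864 of 5095 other distal clone 3 peaks, which leaves the WT shares close to each other.

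Median GC content was 57.6% and 57.1% with an overlap of 100 bp, 60.6% and 60.5% with 200 bp, and 58.4% and 58.1% with the midpoint in coding sequence. In clone 3 it was 55.6% beyond 10 kb, 55.3% at or above the median score and 55.5% with the lower IDR, and in WT 57.7% in 300 bp around the midpoint. The CTCF share was 0.990% and 1.85% with 200 bp of overlap (below other distal peaks of the reported setting) and 3.30% in clone 3 with the lower IDR. The clone 3 median percentile was 31.4 with the midpoint in coding sequence. The median rank shift was -1.06 points with the lower IDR. The cause of these changes was not tested.

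With 1 replicate at a time the median percentile ran from 39.7 to 42.0 in WT and from 38.5 to 39.7 in clone 3, and the rank shift from 1.61 to 1.86 points. Of 54 such values for named peaks 49 were within 1 standard deviation of the replicates. The others were the percentile of Gpr98 (95.3), Smarcc1 (57.1) and Ptprs (29.3), and the rank shifts of Pdss2 (-44.2) and Ptprs (-21.8). With only 2 replicates this range is wide, and it includes 25.1 for the rank shift of Dennd5b and 41.3 for the percentile of Vash1. No paired analysis was possible because each list combines its replicates and no result comes from a test. Presence in a list depends on the depth and threshold of that list, neither of which can be told apart here from a difference between lines.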
